A study of Mus musculus with 4 samples.

Results

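Retinoic acid genes of the embryonic mouse skull vault (calvaria) were compared between its front and its back. The 10 genes were chosen by name for their role in retinoic acid signalling, with no threshold on their values, from the 55487 Ensembl gene IDs counted in each library. They comprise the synthesis enzymes Aldh1a1, Aldh1a2, Aldh1a3 and Rdh10, the breakdown enzymes Cyp26a1 and Cyp26b1, the binding proteins Crabp1 and Crabp2, the receptor Rarb and the retinol uptake receptor Stra6. All 10 were found in the annotation of GRCm38 and all 10 passed the filter on low counts. Earlier results of these data were known when the 10 genes were chosen. Poly(A) RNA was sequenced from mouse embryos at E14.5 (days of embryonic development). The frontal bone gave 2 libraries, and the parietal and interparietal bones, together in one sample, gave the other 2, called posterior libraries here (parietal-interparietal in the figures). No strain, sex, genotype, treatment or number of embryos per library is given in the labels, so each p-value rests on the spread among these libraries alone, and that spread may be technical. Neural crest is the main source of the frontal bone, and mesoderm that of the parietal bone, but the interparietal bone has both origins, so the groups do not separate them.

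Retinoic acid is a small lipid made from vitamin A. Cells take up retinol through STRA6, RDH10 oxidises it to retinaldehyde, and the ALDH1A enzymes turn retinaldehyde into retinoic acid. CRABP1 and CRABP2 carry retinoic acid inside the cell, CYP26 enzymes destroy it, and the retinoic acid receptors (RAR), paired with RXR, bind response elements in DNA and switch target genes. In the skull the meninges, the membranes under the vault, are a known site of synthesis through Aldh1a2, and loss of CYP26B1 is known to disturb the vault bones and sutures.

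Rarb and Cyp26a1 are classic targets of the retinoic acid receptors, and the response element lies next to their start sites. The element is a direct repeat with a 5-base spacer (DR5). It was searched as a pair of hexamers with 5 bases between them. Each hexamer could be AGGTCA or AGTTCA, and equally GGGTCA or GGTTCA. Both strands were searched, in RefSeq promoter windows of GRCm38.p6 that run from 250 bases before to 50 bases after a start. Of the 10 genes, 7 had a window (11 windows in all), and 2 held the element, Rarb and Cyp26a1. Of all 32851 windows, 0.0974% held it, and of the 27025 genes with a window, 0.115% did. Rarb and Cyp26a1 were known beforehand to carry the element, so their 2 matches are no independent test against these shares. The Rarb element lay 53 to 37 bases before the start on the gene's strand, and the Cyp26a1 element 32 to 16 bases before the start on the opposite strand. Each is printed with 6 flanking bases, 5′ to 3′ on the gene's strand, with the hexamers in capitals, to show that both genes carry the same kind of site:
Rarb, chr14:16575507-16575535, minus strand: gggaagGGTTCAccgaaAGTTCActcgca
Cyp26a1, chr19:37697770-37697798, plus strand: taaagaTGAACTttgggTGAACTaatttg

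Cyp26a1 and Cyp26b1 encode enzymes of the same activity, and the bases upstream of both are shown. A link of these bases to the levels of the genes was not tested. The stretches, of 240 bases for Cyp26a1 and 152 bases for Cyp26b1, end where the annotated exons begin. The Cyp26a1 stretch holds the DR5 element, in capitals, and the Cyp26b1 stretch holds none:
Cyp26a1, chr19:37697558-37697797, plus strand: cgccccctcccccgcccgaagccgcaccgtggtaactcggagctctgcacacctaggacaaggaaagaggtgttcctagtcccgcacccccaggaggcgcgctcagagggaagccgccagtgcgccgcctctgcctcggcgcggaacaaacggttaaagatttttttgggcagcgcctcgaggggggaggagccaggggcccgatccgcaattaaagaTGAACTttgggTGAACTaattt
Cyp26b1, chr6:84593909-84594060, minus strand: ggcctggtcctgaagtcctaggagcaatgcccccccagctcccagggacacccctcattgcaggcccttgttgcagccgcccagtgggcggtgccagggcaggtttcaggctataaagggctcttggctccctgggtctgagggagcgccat
No window of the 7 genes held the same hexamers with a spacer of 1 base (DR1, in 0.222% of all windows) or of 2 bases (DR2, in 0.268%). These matches describe letters in short windows and say nothing of receptor binding in these samples, nor of elements farther away. Aldh1a3, Rdh10 and Crabp2 had no window.

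In the frontal libraries Cyp26b1, Crabp2 and Stra6 were lower and Crabp1 was higher than in the posterior libraries, while none of the 4 synthesis genes, nor Cyp26a1 and Rarb, passed the test. Calls are edgeR quasi-likelihood tests with a Benjamini-Hochberg adjusted p under 0.05 over all 20947 genes tested, and each log2 fold change is frontal minus posterior with its standard error (SE). Thus 3 of 10 genes were called lower, against 6.44% of all genes tested, and 1 was called higher, against 6.25%. These shares are no independent test, since earlier results of these data were known when the genes were chosen. In either direction 12.7% of all genes were called. The median log2 fold change was −0.19 over the 10 genes and 0.01 over all genes tested. For 6 of the 10 genes the 2 frontal libraries lay on one side of both posterior libraries, 2 with higher and 4 with lower frontal values. This was so for 57.3% of all genes tested (28.9% with higher and 28.4% with lower frontal values), so that such separation alone was common. Levels are CPM, the count of a gene over the library total on a common scale, with totals corrected by TMM, edgeR's trimmed-mean scaling.

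**Figure D1:**
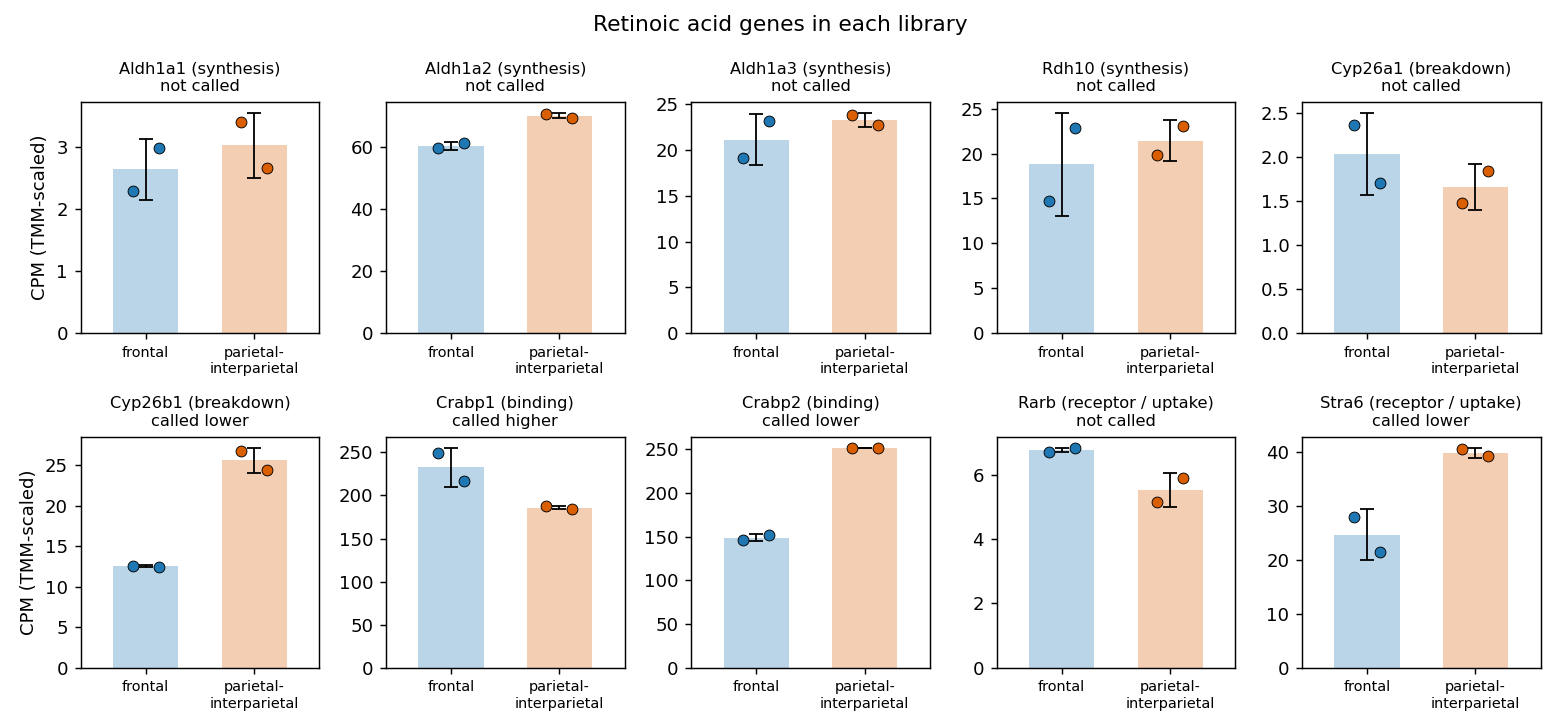
Level of each of the 10 genes (y axis, CPM after TMM scaling, from 0) in the frontal and the posterior libraries; points are libraries, bars the mean of 2 and error bars the SD. The posterior points of Cyp26b1, Crabp2 and Stra6 lie above both frontal points, and those of Crabp1 below.

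The libraries held between 24069177 and 35555013 counts, so that 3 counts, taken as the counting floor, correspond to 0.0852 to 0.123 CPM. Osteoblast factors were present in both groups, with Runx2 at 16.1 ± 0.371 CPM against 12.1 ± 1.97 CPM in the posterior libraries (mean ± SD over n = 2). Runx2 was not called (edgeR adjusted p = 0.113). Of 11 osteoblast markers 2 were higher and 2 lower in frontal libraries. Their summed level was lower there, at 2606 to 2616 CPM against 3650 to 3651 CPM. Most of that sum came from the 2 lower genes, the collagen genes Col1a1 and Col1a2. Their mean levels were 981 and 1471 CPM in the frontal and 1496 and 2057 CPM in the posterior libraries. The median log2 fold change of the 11 markers was 0.41, with 7 above and 4 below 0. Ibsp, which encodes bone sialoprotein of the mineralising matrix, was at 81.2 and 92.4 CPM in the frontal and 40.9 and 40.7 CPM in the posterior libraries and was called higher by 2.13-fold (edgeR adjusted p = 0.000118). Bglap and Dmp1, genes of late osteoblasts and osteocytes, stayed under 1 CPM in every library. The samples also held other tissues of the head. Of 11 tested forebrain markers 10 were higher in frontal libraries, with a summed level of 473 to 476 CPM against 66.0 to 69.9 CPM. Of 15 meningeal markers 8 were lower and 0 higher, with 580 to 638 CPM against 947 to 950 CPM. Sensory ganglion markers were lower in 8 of 12, with 198 to 210 CPM against 357 to 365 CPM, and muscle markers in 10 of 12, with 1780 to 1894 CPM against 2447 to 2470 CPM. In such bulk samples fewer cells of a type and less RNA per cell cannot be told apart.

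None of the 4 synthesis genes was called between the bones. Aldh1a2, the main retinaldehyde dehydrogenase of the meninges and of much embryonic mesenchyme (ENSMUSG00000013584, chromosome 9, 71215789 to 71296243), was counted 1716 and 2161 times in the frontal libraries and 1733 and 1890 times in the posterior ones. Scaled, these were 59.7 and 61.4 CPM against 70.9 and 69.6 CPM. Both frontal libraries were the lower ones, yet the difference of 1.16-fold was not called (log2 fold change −0.22 ± 0.09 SE, edgeR adjusted p = 0.142). The log2 fold change was −0.19 and −0.25 without frontal libraries 1 and 2, and −0.20 and −0.23 without posterior libraries 1 and 2. With 1 library left out, its group holds 1 library, and a p-value takes its spread from the other pair alone. Calls gained or lost in such fits need not reflect a change in the fold.

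Aldh1a3, a retinaldehyde dehydrogenase known from the ventral retina and the nasal epithelium (ENSMUSG00000015134, chromosome 7, 66390890 to 66427517), was at 19.2 and 23.2 CPM in frontal and 23.9 and 22.7 CPM in posterior libraries. The groups overlapped, and the gene was not called (log2 fold change −0.14 ± 0.13, edgeR adjusted p = 0.558). Aldh1a1, known from the dorsal retina and midbrain dopamine neurons (ENSMUSG00000053279, chromosome 19, 20492715 to 20643465), had only 66 to 105 counts per library. Its levels of 2.29 and 2.98 CPM in frontal and 3.40 and 2.65 CPM in posterior libraries overlapped (−0.19 ± 0.32, adjusted p = 0.759). The Aldh1a1 transcript is 90.25% identical over 2011 aligned bases to that of its close relative Aldh1a7, with a longest identical stretch of 100 bases, so counting could have split reads between them. Aldh1a7 was at a similar 2.45 ± 0.513 CPM in frontal and 3.16 ± 0.123 CPM in posterior libraries and was not called either. No other pair compared within the Aldh1a, Crabp and Cyp26 families shared an identical stretch over 26 bases.

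Rdh10, which makes the retinaldehyde that these enzymes use (ENSMUSG00000025921, chromosome 1, 16105774 to 16133734), had 424 and 805 frontal counts and 485 and 625 posterior counts. At 14.7 and 22.9 CPM the frontal libraries differed more from each other than the group means did, 18.8 ± 5.74 against 21.4 ± 2.25 CPM. Rdh10 was not called (log2 fold change −0.19 ± 0.19, edgeR adjusted p = 0.583). The value rested on which frontal library was used. Without frontal library 2 the log2 fold change of Rdh10 was −0.55, and without frontal library 1 the sign turned (0.09).

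Of the breakdown enzymes, Cyp26b1 was 2.04-fold lower in frontal libraries, the largest fold of the 10 genes. Cyp26b1 (ENSMUSG00000063415, chromosome 6, 84571414 to 84593908, minus strand) had 362 and 437 counts in the frontal and 652 and 663 counts in the posterior libraries, although the frontal libraries were sequenced more deeply. The levels were 12.6 and 12.4 CPM against 26.7 and 24.4 CPM, with both frontal libraries near the same low value and no overlap. The log2 fold change was −1.03 ± 0.13 (edgeR adjusted p = 0.000738), and Cyp26b1 remained called lower in all 11 alternative settings, between −1.10 and −0.97.

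Cyp26a1, the retinoic acid-induced member of the family whose upstream element is printed above (ENSMUSG00000024987, chromosome 19, 37697798 to 37701536), had 68 and 60 counts in the frontal and 36 and 50 counts in the posterior libraries, or 2.36 and 1.70 CPM against 1.47 and 1.84 CPM. The groups overlapped, and the gene did not pass the test (log2 fold change 0.29 ± 0.39, edgeR adjusted p = 0.693). The remaining member of the family, Cyp26c1, had 17 and 17 counts in the frontal and 6 and 2 counts in the posterior libraries and was not called (1.74 ± 0.89, adjusted p = 0.241). Per kilobase of merged exons, Cyp26b1 stood at 1.97 and 2.70 times Cyp26a1 in the frontal libraries and at 6.71 and 4.91 times Cyp26a1 in the posterior libraries. The ratios did not overlap between the groups, but with 2 libraries against 2 an exact permutation test cannot give a p below 0.333.

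The binding proteins moved in opposite directions. Crabp2, which hands retinoic acid to the nuclear receptors (ENSMUSG00000004885, chromosome 3, 87948666 to 87953376), was at 145.7 and 151 CPM in frontal libraries 1 and 2 and at 252 CPM in each posterior library. The frontal libraries were lower without overlap, by 1.69-fold (4190 and 5334 against 6152 and 6835 counts; log2 fold change −0.76 ± 0.08, edgeR adjusted p = 0.00025). Crabp2 was called lower in all 11 alternatives, between −0.81 and −0.73.

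Crabp1, which holds retinoic acid in the cytoplasm and marks cranial neural crest and its mesenchyme (ENSMUSG00000032291, chromosome 9, 54764748 to 54773110), was at 248.85 and 216 CPM in frontal libraries and at 187 and 185 CPM in posterior libraries. Both frontal libraries were higher, by 1.25-fold (7157 and 7623 against 4577 and 5013 counts; log2 fold change 0.32 ± 0.09, edgeR adjusted p = 0.0351). This call was lost with total-count scaling (edgeR adjusted p = 0.0659). It was also lost without posterior library 1 or 2 and with that pair summed as 1 sample. In those fits the log2 fold change was 0.33, 0.31 and 0.32, and the spread came from the frontal pair alone. Per kilobase, Crabp2 stood at 0.355 and 0.424 times Crabp1 in frontal libraries and at 0.815 and 0.827 times in posterior libraries. Crabp2 was thus closer to Crabp1 in both libraries from the back of the vault, a difference for which the smallest possible exact permutation p is again 0.333.

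Stra6, the membrane receptor through which cells take retinol from its carrier in blood (ENSMUSG00000032327, chromosome 9, 58063788 to 58153996), was 1.62-fold lower in frontal libraries. It had 804 and 752 counts in the frontal and 989 and 1062 counts in the posterior libraries, or 28.0 and 21.4 CPM against 40.5 and 39.1 CPM. The frontal libraries were spread more widely but both were below the others (log2 fold change −0.69 ± 0.13, edgeR adjusted p = 0.00814). The call held in all 11 alternatives, with log2 fold changes from −0.90 without frontal library 1 to −0.52 without frontal library 2. Adjusted p was closest to the threshold without posterior library 1 (0.0481).

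Rarb, the retinoic acid receptor whose own promoter carries the element above (ENSMUSG00000017491, chromosome 14, 16430839 to 16819156, minus strand), had 193 and 240 counts in the frontal and 126 and 160 counts in the posterior libraries. At 6.71 and 6.82 CPM both frontal libraries were above the posterior libraries at 5.16 and 5.90 CPM, but the gene was not called (log2 fold change 0.29 ± 0.20, edgeR adjusted p = 0.408). Of its 5265 merged exon bases, 1793 overlap exons of the far more abundant gene Top2b on the opposite strand (3814 to 7901 counts per library). Without a stated strand setting, reads from the shared bases cannot be told apart, and the value of Rarb is uncertain for that reason.

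**Figure D2:**
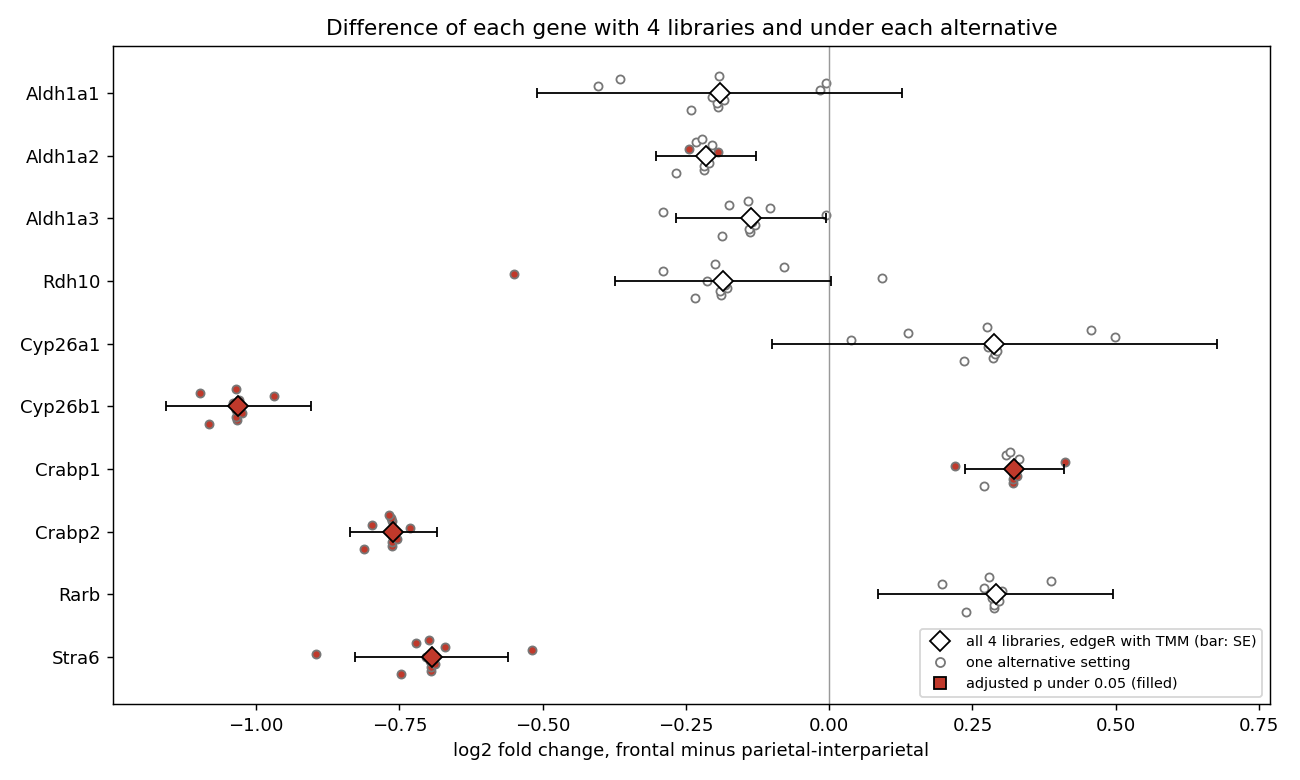
Log2 fold change, frontal minus posterior (x axis), of each of the 10 genes; diamonds are the fit on 4 libraries with SE bars, circles the alternative settings, and filled symbols passed an adjusted p of 0.05. Cyp26b1, Crabp2 and Stra6 are filled throughout, Crabp1 in part, and Rdh10 has circles on both sides of 0.

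Divided by the length of merged exons, so that genes can be compared with each other, the levels spanned a wide range in both groups. Crabp1 was highest in each, at 290 ± 28.5 CPM per kb in frontal and 232 ± 2.26 CPM per kb in posterior libraries, followed by Crabp2 at 112 ± 3.09 and 190.5 ± 0.0709 CPM per kb. Aldh1a2 came next at 26.7 ± 0.531 and 31.0 ± 0.396 CPM per kb and was the leading synthesis gene, at 5.40 to 6.35 times the level of Aldh1a3 and 44.9 to 57.2 times that of Aldh1a1 in every library. In the frontal libraries Aldh1a3, Rdh10 and Stra6 followed between 3.54 and 5.50 CPM per kb, with overlapping libraries. In the posterior libraries Stra6 stood above these at 6.83 ± 0.162 CPM per kb, and Rdh10, Aldh1a3 and Cyp26b1 overlapped between 4.56 and 5.54 CPM per kb.

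At the low end of both groups were Rarb, Cyp26a1 and Aldh1a1, from 1.28 ± 0.0141 CPM per kb for Rarb in frontal libraries to 0.534 ± 0.0984 CPM per kb for Aldh1a1 there. Set against the leading breakdown gene, the leading synthesis gene Aldh1a2 was at 11.2 and 11.7 times Cyp26b1 in the frontal libraries and at 6.28 and 6.74 times in the posterior libraries, on the same scale. With the longest transcript as the length, Aldh1a2 was at 21.4 to 27.3 times Aldh1a1, and the order of the binding proteins turned in the posterior libraries, where Crabp2 was then at 270 and Crabp1 at 232 CPM per kb. Stra6 then stood above Aldh1a3 and Rdh10 in frontal libraries, at 8.01 against 6.15 and 5.24 CPM per kb.

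**Figure D3:**
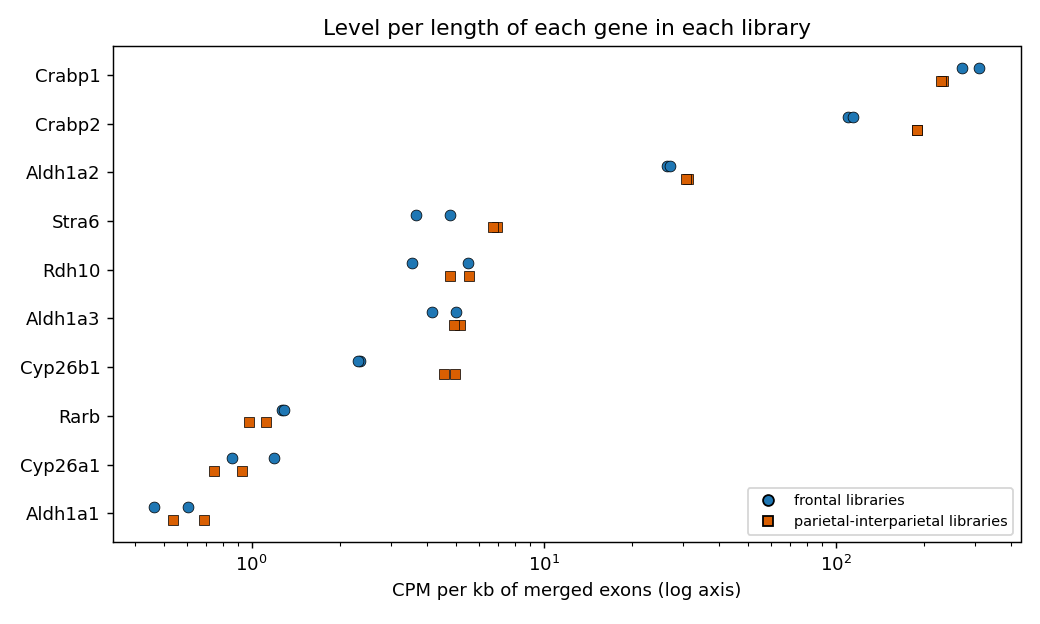
Level of each gene in each library (x axis, CPM per kb of merged exons, log axis), ordered by the posterior mean; circles are frontal and squares posterior libraries. Crabp1, Crabp2 and Aldh1a2 lead in both groups, and Cyp26b1 shows the widest gap between circles and squares.

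Markers of several other tissues moved with the lower genes. Ptgds, which makes prostaglandin D2 in the arachnoid, had a log2 fold change of −1.47 and was at 71.8 ± 9.96 against 199 ± 1.91 CPM (n = 2 each), and the median of the 15 meningeal markers was −0.57, beside −1.03 for Cyp26b1, −0.76 for Crabp2, −0.69 for Stra6 and −0.22 for Aldh1a2. None of the 15 had 0 counts in any library. Of the 15, 7 were not called, among them Crym and Cxcl12 with log2 fold changes of −0.06 and −0.07. Midbrain and hindbrain markers had the lowest median of the 13 lists, −1.34, with 7 of 12 lower and 0 higher and 52.9 to 65.5 CPM in sum against 127 to 139 CPM. Sensory ganglion markers had a median of −1.10, muscle markers one of −0.55 and blood markers one of −0.45. In the other direction, forebrain markers had a median of 4.35 and olfactory and respiratory markers one of 2.63. The part of these tissues in the differences of the 10 genes was not tested. The share of counts on ribosomal RNA genes, mitochondrial ones included, also separated the groups, at 10.8% and 9.15% in the frontal and 6.64% and 6.53% in the posterior libraries, and its part was not tested either.

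By the smallest distance between profiles over the 4 libraries, among 14231 other protein-coding genes whose mean reached 1 CPM, the genes most like Cyp26b1 were the receptor tyrosine kinase Mst1r, Kcna2, a voltage-gated potassium channel of neurons, and the extracellular superoxide dismutase Sod3. Kcna2 measured 6.95 ± 0.152 CPM in the frontal and 15.1 ± 0.512 CPM in the posterior libraries. The nearest to Crabp2 were the zinc finger genes Zfp395 and Zfp36 and the ligand Wnt6, which also belongs to the meningeal markers used here. Wnt6 was at 31.1 ± 0.644 against 52.3 ± 1.13 CPM. Close profiles are easily found among so many genes over 4 libraries, and the levels given follow from that choice. A link of these genes to Cyp26b1 or Crabp2 was not tested.

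Other genes of the pathway went both ways. Of 65 further genes in 5 lists, 52 were tested, 5 were higher and 9 lower in frontal libraries, and their median log2 fold change was −0.12. Over all genes tested 6.25% were higher and 6.44% lower, and the shares called in the lists of enzymes and of receptors lie near the 12.7% called in either direction. The remaining lists had larger shares, most of all the genes reported to respond, with 1 higher and 7 lower of 16 tested. Among the 7 tested genes of retinol uptake and storage, 1 was higher. The higher gene was Ttr, which encodes the transthyretin that carries the retinol-binding protein in blood and is a leading product of the choroid plexus. Ttr was at 748 and 778 CPM in the frontal and at 29.6 and 25.7 CPM in the posterior libraries, without overlap (log2 fold change 4.79 ± 0.10, edgeR adjusted p = 2.91e-09). The choroid plexus markers, of which Ttr is one, were higher in 4 of 9 and lower in 0, at 916 to 963 CPM in sum against 141 to 142 CPM. Most of that sum was Ttr itself. The other 8 markers, 3 of them higher, summed to 168 and 185 CPM against 111 and 116 CPM, and their part in the value of Ttr was not tested.

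Rbp4, the retinol carrier of blood, was lower in both frontal libraries but not called (−0.84 ± 0.36, adjusted p = 0.158). Dgat1 of the same list was higher in both frontal libraries and was not called either (0.36 ± 0.15, edgeR adjusted p = 0.155).

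Of 11 tested enzymes of retinol and retinaldehyde, 1 was higher and 0 lower (median 0.11). The higher gene was Adh5, a widely expressed alcohol dehydrogenase whose main substrate is a formaldehyde adduct, at 91.4 and 84.3 CPM against 63.5 and 65.6 CPM (log2 fold change 0.44 ± 0.09, edgeR adjusted p = 0.00997). Dhrs3, which turns retinaldehyde back to retinol and is known to be induced by retinoic acid, was at 18.9 and 19.7 CPM in frontal and 24.1 and 19.8 CPM in posterior libraries and was not called (−0.18 ± 0.13, adjusted p = 0.432). Dhrs4 of the same list was higher in both frontal libraries but not called (0.23 ± 0.11, edgeR adjusted p = 0.186). Rdh12, a retinaldehyde reductase known from photoreceptors, had 27 and 105 counts in the frontal and 120 and 129 in the posterior libraries and was not called (−1.28 ± 0.44, edgeR adjusted p = 0.0849). It was called lower with no filter (adjusted p = 0.00116) and with the replicate block (0.00359). Its log2 fold change ran from −2.37 without frontal library 2 to −0.69 without frontal library 1. Rdh9 and Rdh16 had 0 counts in all libraries. Of the 3 genes of other breakdown enzymes and carriers, Fabp5, a fatty acid-binding protein that can carry retinoic acid, was called higher at 285 ± 11.3 against 208 ± 2.88 CPM (0.45 ± 0.08, adjusted p = 0.00389). Cyp2s1 of that list was also higher in both frontal libraries but not called (0.85 ± 0.43, edgeR adjusted p = 0.238). Neither Adh5 nor Fabp5 passed once a posterior library was left out or the pair was summed.

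Of 15 receptors and cofactors, 1 was higher and 1 lower (median −0.08). Rarg, the retinoic acid receptor of skeletal and skin precursors, was at 98.9 and 90.1 CPM in frontal and 126 and 127 CPM in posterior libraries (log2 fold change −0.42 ± 0.09, edgeR adjusted p = 0.0106). Rara, the widely expressed receptor, had a log2 fold change of −0.43 ± 0.14 and was not called (adjusted p = 0.0683). It was called lower with total-count scaling (adjusted p = 0.0445), with no filter (0.0142) and with the replicate block (0.0195). The corepressor Ncor1 was called higher (0.26 ± 0.07, adjusted p = 0.0466). Rarg and Ncor1 both lost their calls once either posterior library was left out or the pair was summed. Ncor1 failed also with total-count scaling and the replicate block (adjusted p = 0.0627).

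Genes reported to respond to retinoic acid in some tissue had the most calls of these lists and also the most tested genes. Of 16 tested, 1 was higher and 7 lower (median −0.41), against 6.25% and 6.44% of all genes tested. These shares are no independent test, since the lists were chosen with earlier results of these data known. The higher gene was Nr2f1, an orphan nuclear receptor of neural crest and cortex, at 113 ± 5.07 against 67.3 ± 0.886 CPM (log2 fold change 0.74 ± 0.09, edgeR adjusted p = 0.000547). The lower genes were Pdgfra, the growth factor receptor of mesenchyme (−0.79 ± 0.08), Tgm2, a transglutaminase (−0.61 ± 0.10), the immediate early factor Egr1 (−0.54 ± 0.11), the forkhead factor Foxc1 (−0.53 ± 0.11), the homeobox factors Hoxb4 (−1.40 ± 0.32) and Meis1 (−0.30 ± 0.09), and Rarres1 (−2.34 ± 0.62). Foxc1 is also among the meningeal markers above and Sox9, which was not called, among the cartilage markers. Rarres1 had only 6 and 19 counts in the frontal and 32 and 70 counts in the posterior libraries. Cdx1 had 0 counts in all 4 libraries.

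Nr2f1 and Pdgfra remained called in all 11 alternatives. Without posterior library 2 the calls of Tgm2, Egr1, Foxc1, Meis1 and Rarres1 were lost, and without library 1 those of Foxc1, Meis1 and Hoxb4. Meis1 also lost its call with DESeq2 (adjusted p = 0.0534). With the pair summed as 1 sample only Nr2f1 and Pdgfra of this list stayed called, and the log2 fold change of Rarres1 ranged from −3.21 without frontal library 2 to −1.78 without posterior library 2.

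**Figure D4:**
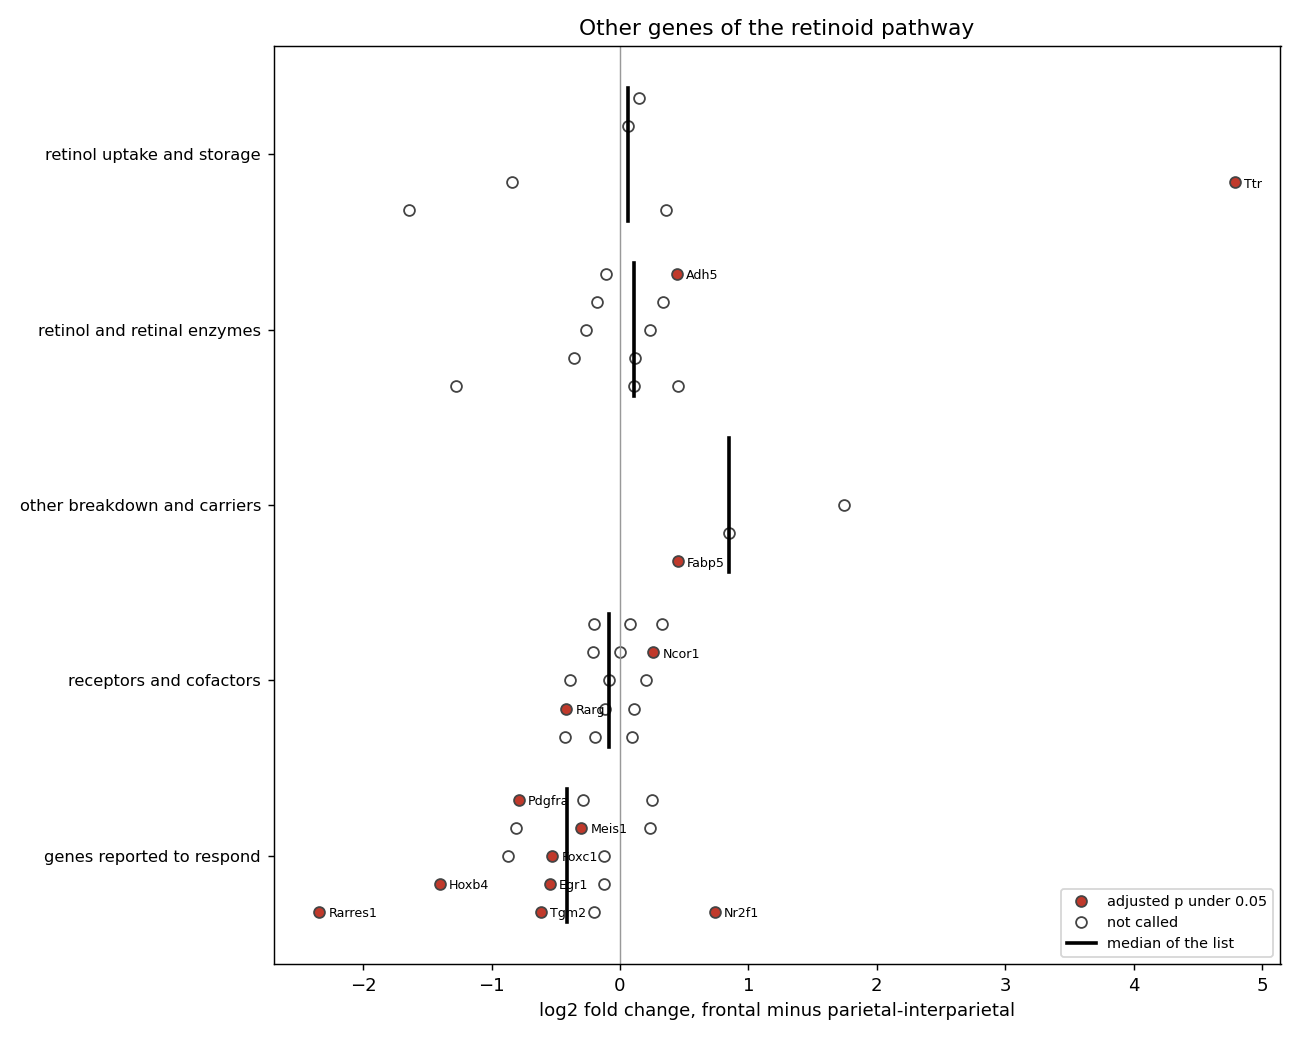
Log2 fold change, frontal minus posterior (x axis), of the tested genes of 5 further lists of the retinoid pathway; filled points passed an adjusted p of 0.05 and are named, black bars are medians over all tested genes of a list, and 1 gene of the top list is not drawn. Ttr stands far to the right at 4.79, and 7 of the 8 filled points in the bottom list lie left of 0.

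**Figure D5:**
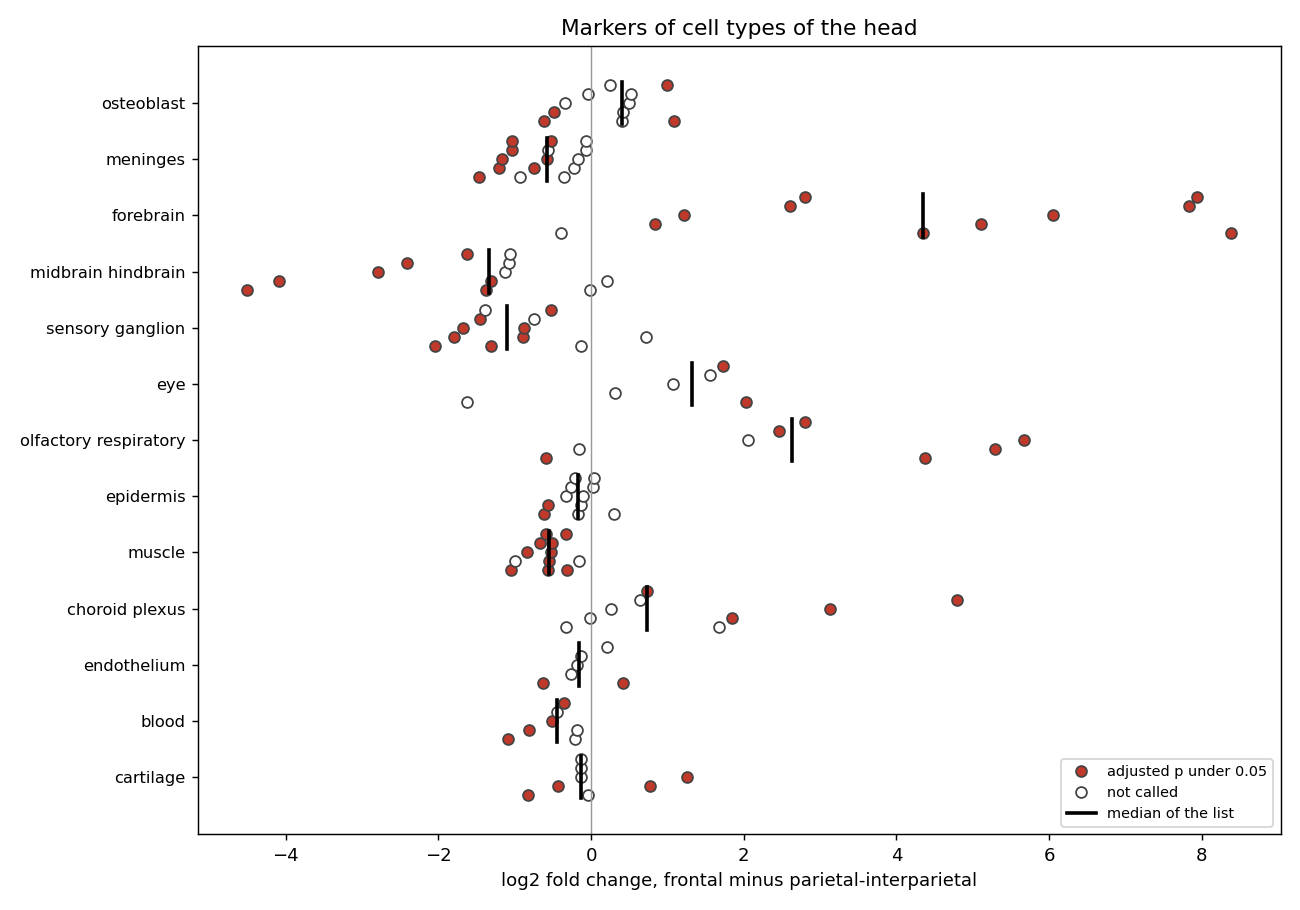
Log2 fold change, frontal minus posterior (x axis), of the tested markers in 13 lists of cell types of the head; filled points passed an adjusted p of 0.05 and black bars are list medians. Meningeal, muscle and blood markers lie left of 0, and forebrain markers reach furthest to the right, with a median of 4.35.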

How the data were processed

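The authors deposited unnormalized counts, whole numbers for each Ensembl gene in each library. GRCm38, featureCounts 2.0.1, HISAT2 2.1.0 and Trim Galore 0.6.7 are named in the submitters' processing notes, without settings, strand or annotation release. Even numbers made up 68.3% to 74.4% of counts from 1 to 20, as counting both mates of a pair would give, so counts divided by 2 were an alternative.

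Symbols and positions came from GENCODE release M21 (GRCm38), with 55227 of 55487 IDs matched. Genes passing filterByExpr (minimum count 10) entered edgeR 4.0.16 (R 4.3.3) with TMM scaling and a two-sided test, group as the only term, with 2 residual degrees of freedom and adjustment over all genes tested. SE is the absolute log2 fold change over the root of F. DESeq2 1.42.0 was an alternative. The fit was tested on simulated data. It recovered 23.1% of genes with a simulated absolute log2 fold change of 0.5, 59.4% at 1 and 76.7% at 2. In the same run 3 unchanged genes were called. Small differences can thus go uncalled. Profile distance was Euclidean on centred log2 CPM with 0.5 added to counts.

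The 10 genes and the lists were chosen with earlier results of these data known. Named are the 10 genes, all called genes of the 5 pathway lists and, in lists with fewer than 3, those of smallest p up to 3, the 3 genes closest to each of the 2 genes with the largest fold, and the called marker of largest fold in each marker list; the text gives some of these only as counts. Dhrs3, Rbp4, Sox9, Bglap, Dmp1, Runx2, Aldh1a7, Top2b and genes at 0 lie outside that rule and were chosen after their values were seen. Figures used matplotlib 3.10.9 and sequence comparisons Biopython 1.88. The values of 1 gene of the uptake and storage list are not reported here; it stays in the counts and medians over the lists.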

Additional observations from a re-analysis of the deposited data

How the results depend on the processing

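Cyp26b1, Crabp2 and Stra6 were called lower in each of the 11 alternatives: total-count scaling, relative log expression scaling, DESeq2, no filter, counts divided by 2, the replicate block, each library left out, and, chosen after seeing the data, the parietal-interparietal pair summed as 1 sample. Of the 10 genes 0 were called higher with total-count scaling and with the pair summed, since Crabp1 lost its call. With 1 library left out, 0 to 1 were higher and 3 to 5 lower, the 5 without frontal library 2. The log2 fold change of Rdh10 was −0.55 without frontal library 2. It was 0.092 without frontal library 1, a change of sign. With 1 library left out or the pair summed, 1 group held 1 sample, so the p-values took their spread from the other pair alone. Calls gained or lost in these fits need not reflect a change in the fold.

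Of the further pathway genes 2 to 13 were called higher and 2 to 13 lower with 1 library left out, and 2 and 2 with the pair summed. Over all genes 423 to 3483 were called higher and 442 to 3796 lower with 1 library left out, more without a frontal library and fewer without a parietal-interparietal one, and 379 and 412 with the pair summed. The cause was not tested. Under total-count scaling 984 genes were higher and 1606 lower; 38.0% of those calls were thus higher, where TMM gave 49.3%.

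With the replicate number as a block (replicate block), 1 of the 10 genes was higher and 3 lower, and 1602 genes in all were higher and 1704 lower. Deviations of same-numbered libraries correlated at 0.00736 over 16789 genes. The labels give only a replicate number, and this correlation cannot settle whether same-numbered libraries share a batch. With hexamers AGGTCA and AGTTCA alone, 1 of the 10 genes (Cyp26a1) kept a DR5 element. Aldh1a1 (66 to 105 counts) and Cyp26a1 (36 to 68) had SEs of 0.318 and 0.389, and 0.323 and 0.392 with counts divided by 2; whether depth set their calls was not tested.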
